A study of Mus musculus with 4 samples.

Results

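The genes described here make polyamines or carry a polyamine-derived mark on a translation factor. The rule took the rows of 10 named genes from the deposited table and kept, for each gene, the transcript with the highest mean over the input libraries. All 10 were found, of 25796 genes (87526 transcripts) in all: Odc1, Amd1, Srm, Sms, Oaz1, Azin1, Sat1, Eif5a, Dhps and Dohh. RNA came from epithelial cells released from mouse colon, in all groups with EDTA, DTT and a ROCK inhibitor, and the 4 libraries are the unenriched inputs of an m6A immunoprecipitation experiment, 2 of WT mice and 2 of mice with the genotype label Ythdf1 KO. YTHDF1 is a cytoplasmic protein that binds m6A-marked mRNA. Which allele the mice carried, how old they were and whether each library is a separate mouse was not given in the sources used here, so each p-value reflects only how far these libraries spread, and that spread may be technical.

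Polyamines are small, positively charged molecules that bind RNA and are needed for growth. Ornithine decarboxylase makes putrescine, and spermidine and spermine follow by addition of aminopropyl groups taken from decarboxylated S-adenosylmethionine. Spermidine is also the donor for hypusine, an amino acid formed on a lysine of eIF5A, which helps ribosomes through stretches that are slow to translate. The intestinal epithelium renews fast and is known for its high demand for polyamines.

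Depth ran from 21686140 to 30951138 recovered reads per library, summed over the transcripts that were kept. Of all transcripts, 90.9% and 91.7% were above 0 in the WT pair, against 86.2% and 86.8% in the pair labelled Ythdf1 KO. The latter pair had the larger numbers of reads. All 10 markers of colon epithelium were present in each library. The pair labelled Ythdf1 KO lay wholly above the WT pair in 2 of them (Epcam and Krt18) and wholly below in 3 (Krt20, Cdx2 and Car1), against 14.3% and 21.4% of all genes tested. At a mean of 2000 or more, as in each of these markers, the share above was 26.5%. No share below was taken at that level. Car1, a carbonic anhydrase of mature colonocytes, read 102727 and 116128 in the WT pair, against 73552 and 42374. Slc26a3, of the same list, read 18713 and 15165 in the WT pair, against 13732 and 23838, so its groups overlapped. The 12 leukocyte markers summed to 1749 and 1659 in the WT pair, against 954 and 898 in the pair labelled Ythdf1 KO. Of them, 4 lay wholly below (Ptprc, Cd4, Lyz2 and Adgre1) and 0 wholly above, against the same 21.4% and 14.3%, which were not taken at a like level. Cd4 and Lyz2 were at 0 in both libraries labelled Ythdf1 KO, while Jchain and Csf1r had ratios of 1.00 and 0.96. Of 12 markers of stroma, muscle, endothelium and nerve, 11 were listed and summed to 1585 to 3886, with 3 wholly below and 0 wholly above. The part of these cells in the values below was not tested. Whether low values and zeros go with the lower share of transcripts above 0 was also not tested. In bulk RNA, fewer cells of a type and less RNA per cell cannot be told apart. Ythdf1 itself had normalised read counts (reads divided by the authors' size factor) of 1088 and 775 in the WT pair, against 1752 and 1737 in the pair labelled Ythdf1 KO (log2 difference 0.92 ± 0.28, adjusted p = 0.759 in limma-trend). Its groups did not overlap, with a ratio of 1.87, and its q in the authors' deposited table was 0.0145. Ythdf1 RNA was thus higher, not lower, under the KO label. This checks nothing if the reads lie outside the disrupted stretch, and each direction here rests on the labels.

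Among the hypusination genes, Eif5a and Dhps but not Dohh were higher in both libraries labelled Ythdf1 KO than in either WT library, while the regulators of ornithine decarboxylase, Oaz1 and Azin1, stood at ratios of 1.01 and 1.03. Srm and Sms differed more within the pair labelled Ythdf1 KO than between groups. In 3 of the 10 members (Odc1, Eif5a and Dhps) that pair lay wholly above the WT pair, as it did for 14.3% of all 23116 genes tested, and in 1 (Sms) wholly below, as for 21.4%. Where the mean over libraries was 2000 or more, as for Eif5a and Odc1, the share above was 26.5%. The median log2 difference of the members was 0.03, against -0.09 over all genes tested. With only genes of a mean of at least 500, it was 0.05 for the 7 members left, against 0.07 over all genes left.

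No member passed the test. limma-trend called 0 members at an adjusted p under 0.05, and 0.0% of all genes tested. Without adjustment, 1 member (Eif5a) had p under 0.05, as did 5.44% of all genes. These were 444 genes (1.92%) with a positive and 813 (3.52%) with a negative difference, or 441 and 501 with quantile normalisation. edgeR on recovered reads also made 0 calls (0.0%), and 1060 genes (4.59%) passed 0.05 without adjustment. DESeq2 called 1438 genes (6.22%, with 1.78% higher) and 1 member, Eif5a. limma without a trend called 524 genes (2.27%) and 0 members. The authors' deposited table had q under 0.05 for 4.96% of the tested genes (1.38% higher and 3.58% lower), and for 1 member, again Eif5a.

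**Figure D1:**
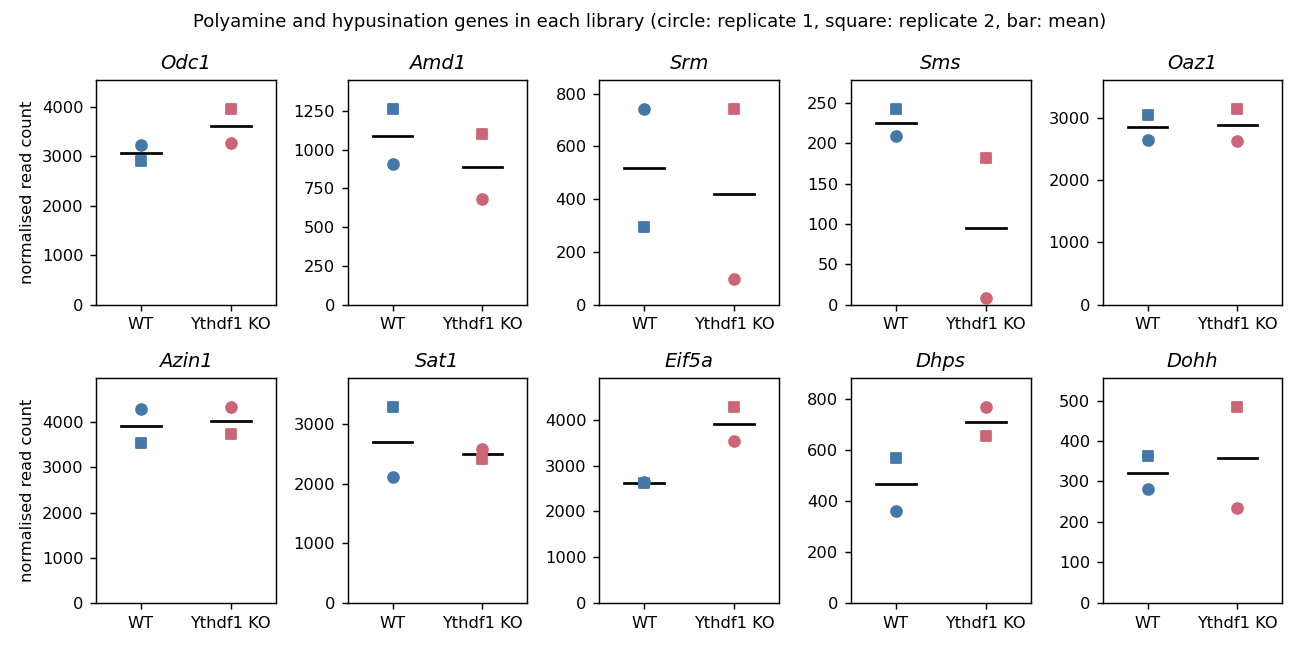
Normalised read counts (y axis, from 0, a separate scale per gene) of the 10 members in the WT libraries (blue) and those labelled Ythdf1 KO (red), with circles for replicate 1, squares for replicate 2 and a bar for the mean. Eif5a and Dhps are higher in both red libraries, and Srm spans 96.9 to 740.3 within 1 group.

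eIF5A carries hypusine, and Eif5a showed the tightest WT pair of the members. Its most abundant transcript, NM_001166589.1 (gene ID 276770, mm10 chr11:69916712-69921386, minus strand), read 2636 and 2619 in the WT pair. The values were 3538 and 4273 under the labels Ythdf1 KO 1 and 2. The groups did not overlap, and the lower of the latter was 34.2% above the higher WT value. Means were 2628 ± 12.4 and 3905 ± 520.1 (SD, n = 2 each), a ratio of 1.49. The log2 difference was 0.57 ± 0.19 (SE), with unadjusted p = 0.024 and adjusted p = 0.759 in limma-trend. edgeR gave a log2 fold change of 0.59 and adjusted p = 0.815, DESeq2 gave 0.58 and adjusted p = 0.0126, and the authors' deposited table gave 0.57 with q = 0.0243. The values rest on 2339 and 2594 reads in WT and on 3649 and 5166 reads in the other pair. A 95% Poisson interval on the lowest of these, 2245 to 2436 reads, covers counting error only. PCR reads without molecular identifiers are not independent molecules.

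All 10 deposited Eif5a transcripts, which begin at 7 start sites and can share reads, had the same separation of the groups. Their ratios ran from 1.48 to 1.67, and the q in the authors' deposited table lay between 0.00276 and 0.0258. The 3 transcripts from the start of the most abundant one held 2606 to 2636 in WT 1, and the 7 from other starts held 1880 to 2056. In the library labelled Ythdf1 KO 2 the same sets held 4241 to 4273 and 3653 to 3702. The ratio ran from 1.48 to 1.49 in the set of 3 and from 1.57 to 1.67 in the set of 7, a difference that was not tested. Eif5a shares 345 bases at its 3′ end with Gps2 on the other strand, and Gps2 read 856 and 760.2 in the WT pair, against 979 and 1316 in the other, so its groups separated in the same direction as those of Eif5a. Whether counting used strand was not given in the sources used here, so reads of that overlap cannot be told apart, and reads of Eif5a pseudogenes may also be shared.

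The summed level of cycling cell markers separated the groups in the same direction as Eif5a. The 10 markers summed to 11735 and 14718 in the WT pair, against 16338 and 19349 in the pair labelled Ythdf1 KO. Of them, 4 were above in both (Mki67, Mcm6, Rrm2 and Ccnb1) and 1 was below (Cdk1), against 14.3% and 21.4% of all genes tested. These shares were not taken at a like level. Their part in the Eif5a difference was not tested, nor was that of the colon epithelium markers, which went to both sides.

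Dhps encodes deoxyhypusine synthase, which transfers the aminobutyl group of spermidine to eIF5A in the first step of hypusine formation. The transcript kept by the rule, XR_001778449.1 (gene ID 330817, mm10 chr8:85069723-85075158, plus strand), is a non-coding model by its RefSeq prefix. It read 363 and 571 in the WT pair, against 769 and 656 in the pair labelled Ythdf1 KO. The groups did not overlap, but WT 2 came within 14.8% of the lower library of the other pair. The means were 467 ± 147 and 712 ± 79.8 (SD, n = 2 each), a ratio of 1.52, and the log2 difference was 0.64 ± 0.40 (SE, adjusted p = 0.792 in limma-trend). It was 0.31 without WT 1 and 0.97 without WT 2.

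The coding transcript of Dhps, NM_001039514.1, gave a tighter picture. It was looked at after its values were seen. It read 349 and 339 in the WT pair, against 605 and 598 in the pair labelled Ythdf1 KO, so that replicates differed by a few percent and the groups by a ratio of 1.75. With it in place of the non-coding model, the Dhps log2 difference was 0.80 ± 0.39 (SE), with unadjusted p = 0.0796 and adjusted p = 0.758 in limma-trend. The q in the authors' deposited table was 0.166 for this transcript and 0.424 for the non-coding one. The third deposited transcript, XM_011248416.2, read 117 and 68.7 in the WT pair, against 191 and 334 in the other. The groups thus did not overlap in any of the 3 Dhps transcripts. Dhps overlaps Wdr83 on the other strand over 128 bases, and Wdr83 read 186 and 182 in the WT pair, against 182 and 235 in the other, with no such separation.

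**Figure D2:**
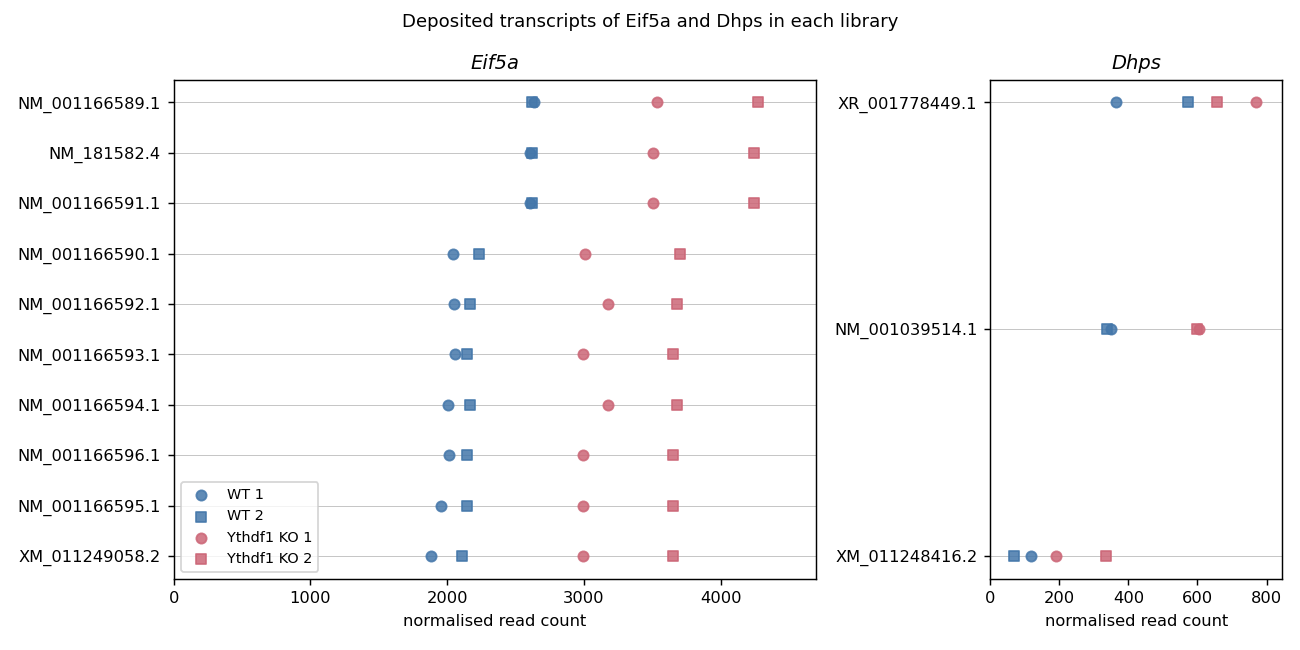
Normalised read counts (x axis, from 0) of each deposited transcript (y axis) of Eif5a and Dhps in the 4 libraries, blue for WT, red for those labelled Ythdf1 KO, circles for replicate 1 and squares for replicate 2. For all 10 Eif5a and all 3 Dhps transcripts the red points lie to the right of the blue ones, and transcripts of a gene share reads.

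Dohh encodes deoxyhypusine hydroxylase, which completes hypusine. Its transcript NM_133964.2 (gene ID 102115, mm10 chr10:81384428-81388352, plus strand) read 282 and 362 in the WT pair, against 234 and 483 in the pair labelled Ythdf1 KO. The latter pair thus spanned both WT values. The log2 difference was 0.07 ± 0.55 (SE, adjusted p = 1.0 in limma-trend), wide enough that a change of the size seen for Dhps was not detectable. It turned to -0.11 without WT 1 and to -0.45 without Ythdf1 KO 2. It was 0.25 without WT 2 and 0.59 without Ythdf1 KO 1, where Dhps stood at 0.53. So the groups separated for the enzyme of the first step and overlapped for that of the last, and the difference between the enzymes was not tested. Dohh shares 3919 bases, most of its span, with the lncRNA Gm48551, which had no deposited values of its own. Reads of that overlap cannot be told apart.

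The bases before the start sites of these 3 genes are shown because 2 of them, Eif5a and Dhps, were high in the same libraries. They are from the RefSeq promoter table (GRCm38.p6), which held 14 windows for 8 of the 10 members, and run up to the base before the start of the named transcript. Capitals mark the E-box CACGTG, a site of MYC and related factors, and the ETS site CCGGAAGT or its other strand ACTTCCGG.
Eif5a, chr11:69921387-69921636, minus strand, before NM_001166589.1: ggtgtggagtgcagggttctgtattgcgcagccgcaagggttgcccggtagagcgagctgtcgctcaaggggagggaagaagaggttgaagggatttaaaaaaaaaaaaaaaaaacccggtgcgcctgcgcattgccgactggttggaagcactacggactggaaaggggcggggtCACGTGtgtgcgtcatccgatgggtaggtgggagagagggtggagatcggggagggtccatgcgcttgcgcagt
Dhps, chr8:85071507-85071756, plus strand, before NM_001039514.1: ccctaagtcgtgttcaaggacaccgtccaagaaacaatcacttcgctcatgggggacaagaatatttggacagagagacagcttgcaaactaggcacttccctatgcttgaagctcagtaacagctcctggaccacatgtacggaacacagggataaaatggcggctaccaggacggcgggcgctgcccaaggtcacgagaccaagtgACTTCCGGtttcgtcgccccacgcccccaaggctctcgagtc
Dohh, chr10:81384184-81384427, plus strand, before NM_133964.2: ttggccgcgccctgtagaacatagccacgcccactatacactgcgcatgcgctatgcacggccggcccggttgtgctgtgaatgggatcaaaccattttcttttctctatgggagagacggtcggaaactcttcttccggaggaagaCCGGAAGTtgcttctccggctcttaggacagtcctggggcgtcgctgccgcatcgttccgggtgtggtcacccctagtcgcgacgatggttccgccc

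Across the 250 bases before each start, an E-box stood in 4 of the 14 member windows, against 6.02% of all 32851 windows. Windows of the same gene can overlap, and no share at like G and C content was taken for the E-box. In the Eif5a window printed above it lies 74 to 69 bases before the start. A second Eif5a window, for a start further downstream, holds the same E-box, so the 3 Eif5a windows with an E-box hold 2 different sites. The fourth window belongs to Sms. The ETS site stood in 4 member windows, against 2.88% of all windows and 4.27% of those with 55 to 60% G and C. Of the 4, the Dhps (55.2%) and Dohh (59.4%) windows lie in that band, and those of Eif5a (72.8%) and Sms (47.2%) do not. The 4 windows belong to Dhps, Dohh, Sms and a downstream start of Eif5a, so each hypusination gene has the same 8 letters before at least 1 start. In Dhps this is the start of the coding transcript. The transcript kept by the rule begins further upstream, so the site lies within its span. The 2.88% and 4.27% are shares of windows, not of genes. Eif5a had several windows, and only that before NM_001166590.1 held the site. The stretches below show that site with 10 bases on each side, to let the surroundings be compared.
Eif5a, chr11:69920668-69920695, minus strand: agccgtagcaCCGGAAGTgttccccatt
Dhps, chr8:85071705-85071732, plus strand: agaccaagtgACTTCCGGtttcgtcgcc
Dohh, chr10:81384321-81384348, plus strand: cggaggaagaCCGGAAGTtgcttctccg
Sms, chrX:157492320-157492347, minus strand: gggaggccccCCGGAAGTcgcgctgagc
The motif lies on the printed strand in Eif5a, Dohh and Sms and on the other strand in Dhps. The flanking letters differ between the genes. A GC box, GGGCGG or CCGCCC, stood in 7 of the 14 windows against 32.7% of all, a CCAAT box, CCAAT or ATTGG, in 3 against 33.8%, and TATAAA or TTTATA in 0 against 12.4%. Such matches are descriptions of letters. Binding was not measured here. No deposited Sms transcript starts at the window that holds its ETS site.

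Odc1 encodes ornithine decarboxylase, the first and rate-limiting enzyme of the pathway, whose gene is a textbook target of MYC. NM_013614.2 (gene ID 18263, mm10 chr12:17544873-17551502, plus strand) read 3223 and 2916 in the WT pair, against 3275 and 3959 in the pair labelled Ythdf1 KO. The groups did not overlap, but only by 1.63%, which is less than the spread within either pair. The means were 3069 ± 217 and 3617 ± 484 (SD, n = 2 each), a ratio of 1.18. The log2 difference was 0.23 ± 0.19 (SE, adjusted p = 0.819 in limma-trend), and 0.10 without Ythdf1 KO 2. The other deposited transcript, XM_017314990.1, gave a ratio of 1.13.

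Antizyme, encoded by Oaz1, binds ornithine decarboxylase and sends it to the proteasome, and the antizyme inhibitor encoded by Azin1 takes antizyme away from it. Oaz1 (NM_008753.4, gene ID 18245, chr10:80826656-80829290) read 2649 and 3061 in the WT pair, against 2640 and 3149 in the pair labelled Ythdf1 KO. Each group spanned nearly the same range, with a log2 difference of 0.018 ± 0.20 (SE). Azin1 (NM_001102458.1, gene ID 54375, chr15:38487430-38519266) read 4285 and 3531 against 4330 and 3744, with a log2 difference of 0.050 ± 0.19 (SE). Both differences were below the spread between replicates and turned sign with quantile normalisation (-0.059 and -0.032). Across the 6 Azin1 transcripts the ratio ran from 0.97 to 1.17, and across the 2 of Oaz1 from 1.01 to 1.04. Translation of Oaz1 needs a polyamine-sensitive ribosomal frameshift, so its RNA level does not show the amount of antizyme.

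Amd1 encodes S-adenosylmethionine decarboxylase, which supplies the aminopropyl donor. NM_009665.5 (gene ID 11702, chr10:40287458-40302188, minus strand) read 908 and 1262 in the WT pair, against 682 and 1098 in the pair labelled Ythdf1 KO. The groups overlapped, with a log2 difference of -0.31 ± 0.36 (SE, adjusted p = 0.871 in limma-trend), which was 0.037 without Ythdf1 KO 1. Amd2, a near-identical copy on the same chromosome, was sought but not listed among the deposited genes, and its reads may be shared with Amd1.

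Spermidine synthase (Srm) and spermine synthase (Sms) add the aminopropyl groups, and both had their lowest value in the library labelled Ythdf1 KO 1. Srm (NM_009272.4, gene ID 20810, chr4:148591513-148594619, plus strand) read 742 and 293 in the WT pair, against 96.9 and 740.3 in the pair labelled Ythdf1 KO 1 and 2. The latter pair differed by 7.64-fold, on 100 and 895 reads, and the WT pair by 2.53-fold. Its residual SD of 1.61 on the log2 scale was larger than that of 97.9% of the 6539 genes with a mean of 200 to 1200, whose median was 0.45. The log2 difference between groups was -0.79 ± 1.01 (SE, adjusted p = 0.881 in limma-trend), and it was 0.67 without Ythdf1 KO 1, -2.25 without Ythdf1 KO 2, -0.12 without WT 1 and -1.46 without WT 2. With all 4 libraries, the Srm log2 fold change was smaller in edgeR (-0.28), in DESeq2 (-0.30) and in the authors' deposited table (-0.30).

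Sms, on the X chromosome (NM_009214.3, gene ID 20603, chrX:157443954-157492046, minus strand), read 209 and 242 in the WT pair. The values were 8.73 and 182 under the labels Ythdf1 KO 1 and 2. Both of the latter were below both WT values, but Ythdf1 KO 2 by only 12.7%. The reads behind these values were 185 and 240 in WT and 9 and 220 in the other pair. The 9 reads carry a 95% Poisson interval of 4.12 to 17.1, so the low value is outside counting error of the others. The log2 difference of -2.42 ± 1.5 (SE, adjusted p = 0.792 in limma-trend) rests on that library, since it was -0.30 without Ythdf1 KO 1 and -4.54 without Ythdf1 KO 2. With all 4 libraries, the Sms log2 fold change was -1.22 in edgeR, -1.24 in DESeq2 and -1.24 in the authors' deposited table. The other deposited transcript, XM_006528775.3, read 205 and 84.8 in the WT pair, against 4.85 and 146 in the other, so its groups overlapped.

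Sat1 encodes the acetyltransferase that marks spermidine and spermine for breakdown or export. NM_001291865.1 (gene ID 20229, chrX:155213126-155216449, minus strand) read 2122 and 3285 in the WT pair, against 2581 and 2419 in the pair labelled Ythdf1 KO. Both of the latter lay inside the WT range. The log2 difference was -0.08 ± 0.26 (SE, adjusted p = 0.994 in limma-trend), and it turned to 0.24 without WT 2.

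**Figure D3:**
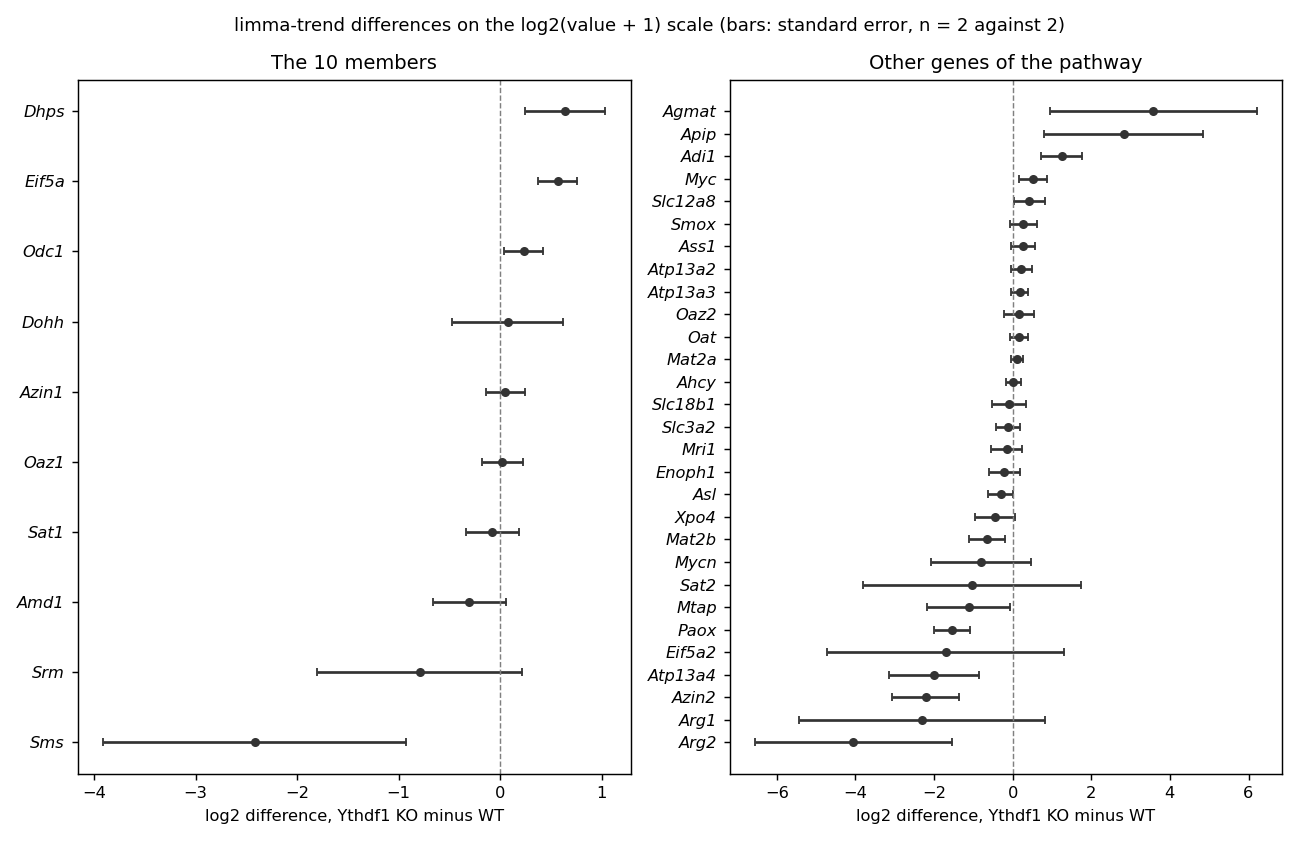
Log2 differences from limma-trend (x axis, labelled Ythdf1 KO minus WT, on the log2(value + 1) scale) with standard errors as bars, n = 2 against 2, for the 10 members (left) and 29 tested genes of the wider pathway (right), sorted by difference. Eif5a (0.57 ± 0.19) and Paox (-1.55 ± 0.45) lie far from 0 for the length of their bars, and among the members the bars of Srm (± 1.01) and Sms are the longest.

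Of 32 other genes of polyamine metabolism, 31 were listed and 29 tested. limma-trend called 0 of them, with a median log2 difference of -0.11, against -0.09 over all genes, and 2 had an unadjusted p under 0.05 (Paox and Azin2). With only genes of a mean of at least 500, the median was 0.13 for the 16 left of this list, against 0.07 over all genes left. The pair labelled Ythdf1 KO lay wholly above the WT pair in 4 and wholly below in 5 of those listed, against the 14.3% and 21.4% of all genes given above. DESeq2 called 1 of them, Paox, as did the authors' deposited table.

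Paox encodes the oxidase that cleaves the acetylated products of SAT1 back towards putrescine. Its most abundant transcript is a non-coding RefSeq model, XR_001785516.1, and the gene has 10 in all. It read 747 and 531 in the WT pair, against 195 and 236 in the pair labelled Ythdf1 KO. The groups were well apart, with averages of 639 ± 153 and 215 ± 28.9 (SD, n = 2 each) and a ratio of 0.337. The log2 difference was -1.55 ± 0.45 (SE), with unadjusted p = 0.0132 and adjusted p = 0.759 in limma-trend, and it lay between -1.80 and -1.30 with any 1 library left out. DESeq2 gave an adjusted p = 0.00506 and edgeR an adjusted p = 0.815, and the q in the authors' deposited table was 0.00598. Azin2, a second antizyme inhibitor, read 275 and 203 in the WT pair, against 65.9 and 38.0 in the other, with an adjusted p = 0.759 in limma-trend and 0.0521 in DESeq2. Atp13a4, a P-type ATPase, read 108 and 179 in the WT pair, against 31.0 and 37.2. The transcripts kept for Azin2 (XR_001784145.1, of 7) and Atp13a4 (XR_384557.3, of 14) are also non-coding models.

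Genes that feed the pathway went to both sides. Adi1, a dioxygenase of the salvage route that returns methionine from the by-product of spermidine and spermine synthesis, read 160.1 and 199 in the WT pair, against 356 and 507 in the pair labelled Ythdf1 KO, with an adjusted p = 0.759 in limma-trend. Apip, a dehydratase of the same route, read 2.25 and 95.9 in the WT pair, against 119 and 129.9, with WT 1 far below the other 3 libraries, on 2 reads. Mat2a, which makes S-adenosylmethionine, read 5436 and 5551 against 6041 and 5761, only 3.79% apart at the nearest. Agmat, named for agmatinase activity, read 0 and 64.6 in the WT pair, against 118 and 77.8. Arg2, the mitochondrial arginase that yields ornithine, read 269 and 156 in the WT pair, against 153 and 0 in the pair labelled Ythdf1 KO 1 and 2. Asl, argininosuccinate lyase, read 817 and 802 in the WT pair, against 601 and 716. Apart from these, the factor gene Myc, chosen after its values were seen, read 630.1 and 904 in the WT pair, against 878 and 1328, so its groups overlapped. Mycn, the other MYC factor of the list, read 385 and 68.7 in the WT pair, against 36.8 and 235, a ratio of 0.60, and also overlapped.

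With any 1 library left out, 4 members kept the sign of their difference and 6 did not. The 4 are those whose groups did not overlap, where leaving out 1 library cannot turn the sign. Only the sizes of their differences were free to change. Eif5a stayed between 0.43 and 0.70 on the log2 scale and Dhps between 0.31 and 0.97, and Odc1 between 0.10 and 0.37. Amd1, Srm, Oaz1, Azin1, Sat1 and Dohh turned sign in at least 1 of the same 4 fits. Sms kept its sign but ran from -4.54 to -0.30. No member passed an adjusted p of 0.05 in any of these 4 fits.

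**Figure D4:**
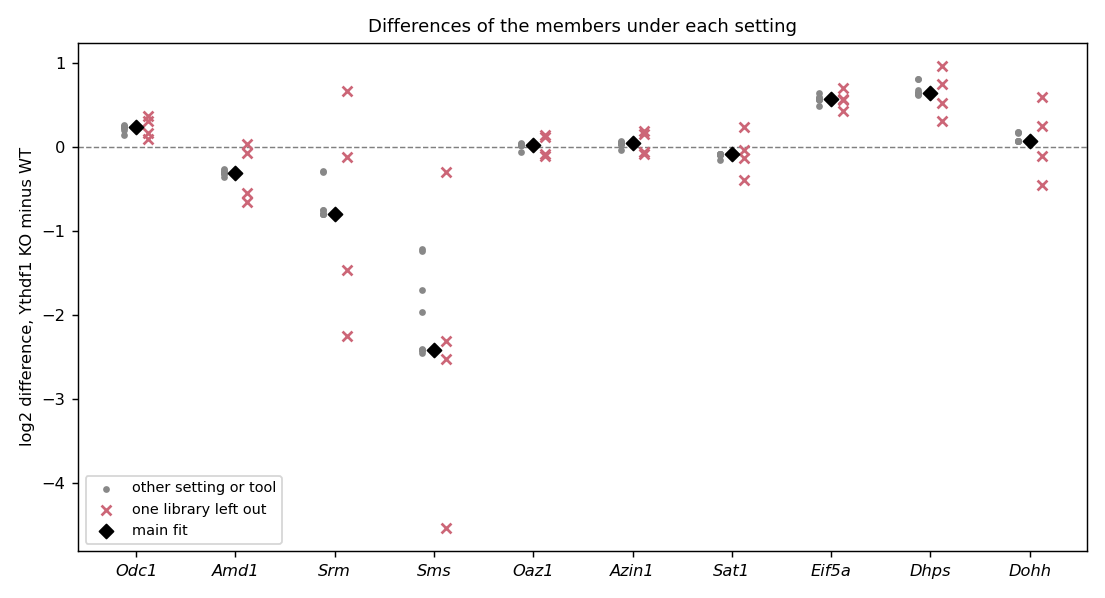
Log2 difference (y axis, labelled Ythdf1 KO minus WT) of each member (x axis) in limma-trend (black diamond), under other settings or tools (grey dots) and with 1 library left out (red crosses). Eif5a, Dhps and Odc1 stay above 0 throughout, Sms stays below, and the crosses of Srm run from -2.25 to 0.67. Where the groups did not overlap, as in Eif5a, Dhps, Odc1 and Sms, a cross cannot change side.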

How the data were processed

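The deposited signal of each transcript is, as read from the values, a read count divided by 1 size factor per library: 100% of values were whole multiples, within 0.001, of the value of 1 read, which gave recovered reads. Per the file headers, the authors also deposited a p-value, a q-value and a log2 fold change. The submitters' processing notes name Bowtie2 2.2.5, CASAVA 1.8, deepTools 3.3.0, HOMER 4.10, MACS2 2.1.0, SAMtools 1.3.1 and mm10, without roles. The read counter was not given in the sources used here. Isoforms each count the reads they share, and transcript lengths were not used, so levels are not compared between genes.

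The most abundant transcript per gene was kept, a gene was tested if 2 or more libraries reached a value of 1, and log2(value + 1) was fitted over all genes with limma-trend (limma 3.58.1, robust, R 4.3.3), a model with group alone, and Benjamini-Hochberg adjustment. The pseudocount understates changes of low genes. Means of log values can also differ from count-based fold changes where replicates spread widely, as for Srm and Sms. Ratios are of group means. edgeR 4.0.16, DESeq2 1.42.0 and other settings were alternatives, and the fit was tested on simulated data. All members were named. Of the wider pathway list, genes were named that passed any tool or the deposited q, or whose groups did not overlap. Myc and Mycn were named outside this rule. The members and lists were chosen with earlier results of these data known.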

Additional observations from a re-analysis of the deposited data

How the results depend on the processing

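The direction of Eif5a, Dhps, Odc1 and Sms held under every alternative run, with Eif5a between 0.43 and 0.70. With 1 library left out, their direction was fixed beforehand, since their groups did not overlap. The count of genes called was 0 in limma-trend, 524 in limma without a trend and 1438 in DESeq2, which called 1 member (Eif5a) and 1 gene of the wider pathway list (Paox). The cause was not tested. With 1 library left out, which assumes that the lone library varies like the others, 0 to 36 genes but 0 members and 0 pathway genes were called, and the median difference of the members ran from -0.10 to 0.26. In those fits Amd1 ran from -0.65 to 0.037, Srm from -2.25 to 0.67, Oaz1 from -0.11 to 0.15, Azin1 from -0.090 to 0.19, Sat1 from -0.39 to 0.24 and Dohh from -0.45 to 0.59. Quantile normalisation turned Oaz1 to -0.059 and Azin1 to -0.032. With the replicate number as a block, 0 genes, 0 members and 0 pathway genes were called, and the median of the members stayed 0.03. Same-numbered libraries share only a number: their deviations correlated at -0.008 over all genes tested, so the block is no pairing. The coding Dhps transcript was an alternative added after seeing the data. With 2 libraries a group, limma-trend and edgeR called no gene, and intervals cover counting error only.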
